A study of Mus musculus with 6 samples.

Results

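The TGF-beta genes described here are 10 mouse genes in 4 roles: the ligands Tgfb1, Tgfb2 and Tgfb3, the receptors Tgfbr1, Tgfbr2 and Tgfbr3, the latency protein Ltbp1, and the targets Tgfbi, Pmepa1 and Skil. They were taken by NCBI Gene identifier from a table of 27179 features, and all 10 were found and passed the filter on low values. RNA had been sequenced from kidney glomeruli, the filtering units of the kidney, of 6 male mice, all 9 weeks old and of mixed C57BL/6 strain. In the 3 KO mice both copies of Parva were floxed (it encodes alpha-parvin, which links integrin adhesions to actin) and Cre was driven by a transgene active in podocytes. The 3 WT mice had the genotype Parva-fl/fl, so both groups shared the floxed gene and, per the labels, Cre was carried by the KO mice. The labels' protocol calls the mice mildly proteinuric, without a separate statement for each group. Glomeruli were collected whole on magnetic beads, so podocytes, which carry the deletion, were measured together with endothelial, mesangial and attached tubule cells.

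TGF-beta ligands are secreted in a latent complex with their own propeptide, which latent TGF-beta binding proteins such as Ltbp1 tie to the matrix until integrins, proteases or thrombospondin release the ligand. The free ligand brings together the type II receptor (Tgfbr2) and the type I receptor kinase (Tgfbr1), which phosphorylates Smad2 and Smad3, while the coreceptor betaglycan (Tgfbr3) binds ligand, Tgfb2 above all, and presents it. Smads enter the nucleus with Smad4 and switch on targets that include their own inhibitors. In glomeruli the pathway is known for matrix deposition and podocyte loss in scarring disease.

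Promoters of the receptors that moved in opposite directions, and of the only target with an entry, are shown for description. No result below rests on these sequences. RefSeq windows (GRCm38.p6, 250 bases before to 50 after a transcript start) matched 6 of the 10 genes in 8 windows. Capitals mark the SMAD-binding letters CAGAC or the GC box GGGCGG on either strand, which did not overlap each other in the windows shown.
Tgfbr1, chr4:47352972-47353271, plus strand: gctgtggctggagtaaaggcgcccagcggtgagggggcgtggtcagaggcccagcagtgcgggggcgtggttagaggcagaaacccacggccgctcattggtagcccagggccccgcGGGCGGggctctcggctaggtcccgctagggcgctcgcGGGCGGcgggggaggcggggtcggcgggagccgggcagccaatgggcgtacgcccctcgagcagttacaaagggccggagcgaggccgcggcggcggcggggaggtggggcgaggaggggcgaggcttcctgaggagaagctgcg
Tgfbr2, chr9:116175314-116175613, minus strand: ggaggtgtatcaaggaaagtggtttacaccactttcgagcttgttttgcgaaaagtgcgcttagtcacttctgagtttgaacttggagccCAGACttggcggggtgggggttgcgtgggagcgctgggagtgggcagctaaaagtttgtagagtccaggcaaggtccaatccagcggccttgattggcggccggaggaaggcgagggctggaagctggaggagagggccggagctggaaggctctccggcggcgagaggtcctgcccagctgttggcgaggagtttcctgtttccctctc
Tgfbi, chr13:56609336-56609635, plus strand: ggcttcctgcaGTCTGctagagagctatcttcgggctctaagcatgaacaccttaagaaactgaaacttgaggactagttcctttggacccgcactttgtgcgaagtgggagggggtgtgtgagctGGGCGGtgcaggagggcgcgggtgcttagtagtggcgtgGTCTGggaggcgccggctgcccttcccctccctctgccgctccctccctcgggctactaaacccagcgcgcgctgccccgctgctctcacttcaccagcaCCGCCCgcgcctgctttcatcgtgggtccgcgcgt
The printed window of Tgfbr1 held 2 GC boxes and no CAGAC, and was 74.7% G and C, but the second RefSeq window of Tgfbr1 (chr4:47385966-47386265) held 1 CAGAC and no GC box at 52.0%, the same motif counts as that of Tgfbr2. The window of Tgfbr2 held 1 CAGAC and no GC box, at 59.0% G and C. The window of Tgfbi held 2 CAGAC and 2 GC boxes. CAGAC occurred in 49.6% and GGGCGG in 35.7% of all 32851 windows of this length, so that either match is common, and a match in letters is not a binding site.

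Whole-read totals recovered from the deposited values were 11886828 to 20552984 per library, and 10 genes that were each counted mostly in 1 library took 0.239% to 32.4% of them. None of these 10 is among the TGF-beta genes described here or in the pathway lists. Parva fell from 7332 ± 672 to 2189.5 ± 215 normalised counts (SD, n = 3; reads per gene divided by a size factor per library). Markers of podocytes, glomerular endothelium and mesangium were present in every library, none of them at 0. Levels of cell type markers differed with genotype. The summed normalised counts of 24 proximal tubule markers were 176618 to 399786 in WT and 485795 to 728041 in KO. Those of 20 endothelial markers were 83106 to 101087 in WT and 54847 to 68435 in KO, and those of 15 mesangial markers 50937 to 64649 and 33553 to 41090. Those of 20 podocyte markers were 259801 to 320661 in WT and 180565 to 253999 in KO. In RNA of whole glomeruli, fewer cells of a type and less RNA per cell cannot be told apart, and the part of these shifts in the results below was not tested except where a value is given.

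Of the 10 genes, 5 were lower in KO, 1 was higher and 4 did not pass an adjusted p of 0.05 (limma with a variance trend on log2(normalised count + 1), adjusted over all 13946 genes tested). The lower ones were Tgfbr2, Tgfbr3, Tgfbi, Pmepa1 and Skil, and the higher one was Tgfbr1. Over all genes tested, 22.1% were called, 8.58% lower and 13.5% higher, and the median log2 fold change was -0.01, with quartiles of -0.27 and 0.36. The groups did not overlap in 7 of the 10 genes, 6 lower and 1 higher, where 45.1% of all genes were free of overlap, 21.9% lower and 23.2% higher. Upper quartile scaling called the same numbers, 5 lower and 1 higher, against 23.3% of all genes, and so did DESeq2, against 27.4%. edgeR called 3 lower and 1 higher, against 20.4% of all genes (8.25% lower, 12.1% higher). Since the genes were chosen with earlier results of these data known, these counts describe them and are no independent evidence.

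**Figure D1:**
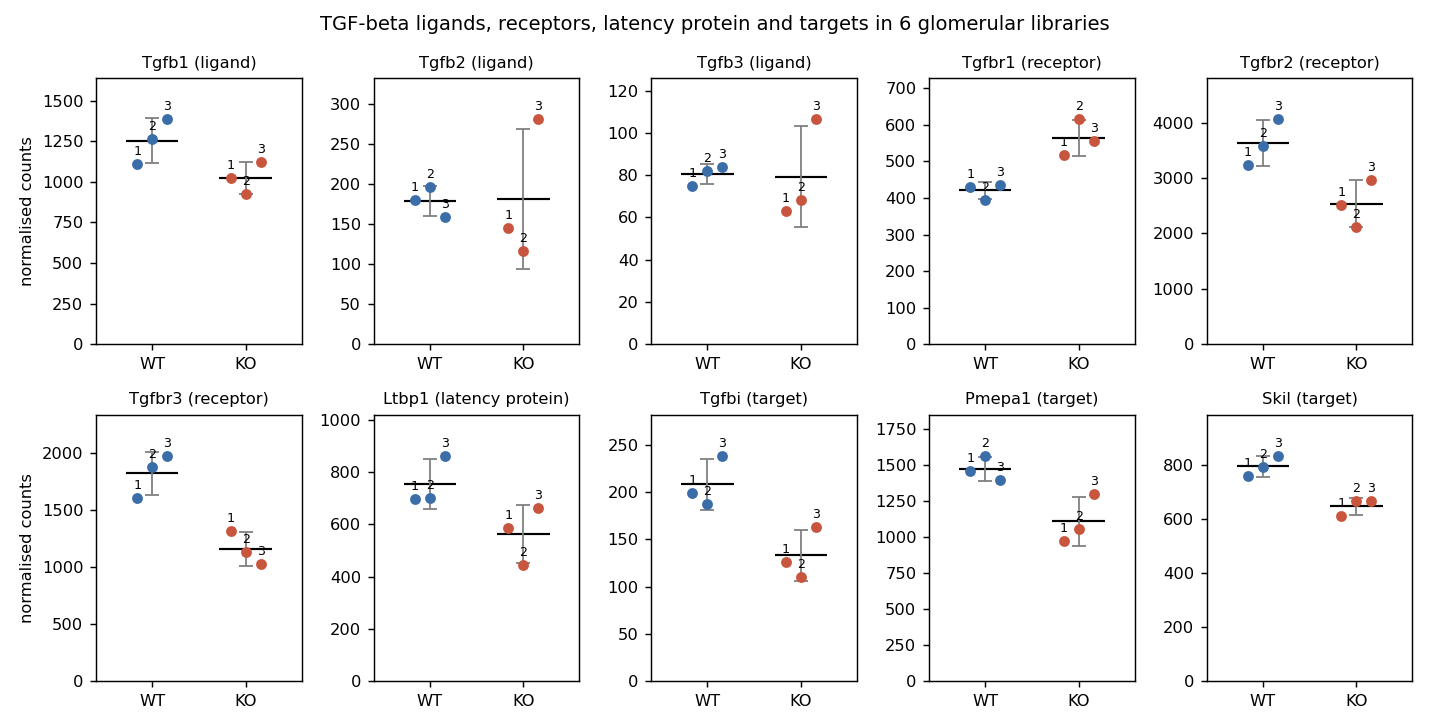
Normalised counts (y axis, from 0, a scale of its own per gene) of the 10 genes in WT (blue) and KO (red) libraries, numbered by replicate; black lines are group means and grey bars SD, n = 3. The KO points lie above the WT points for Tgfbr1 and below them for Tgfbr2, Tgfbr3, Ltbp1, Tgfbi, Pmepa1 and Skil with the deposited scaling, and KO-3 stands apart for Tgfb2 and Tgfb3.

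The 3 receptors did not move together: with the deposited scaling the type II receptor and the coreceptor were lower in KO and the type I receptor was higher, while under equal endothelial and mesangial marker levels the type II receptor was at 0.13 and the coreceptor near 0. Tgfbr2 (NCBI Gene 21813; mm10 chromosome 9, 116087695 to 116175363), the ligand-binding kinase that activates Tgfbr1, stood at 3234, 3587 and 4068 normalised counts in the WT libraries (values here and below run from replicate 1 to 3) and at 2520.5, 2116 and 2965 in the KO libraries. Every KO library lay below every WT library, and KO-2 was the lowest. The mean fell from 3629 ± 418 to 2534 ± 425 (SD, n = 3). In limma this was a log2 fold change of -0.53 with SE 0.15, a 95% confidence interval of -0.87 to -0.18 and an adjusted p of 0.0443. edgeR on the recovered reads gave a log2 fold change of -0.52 with an adjusted p of 0.0501, on the other side of the threshold.

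Tgfbr3 (NCBI Gene 21814; chromosome 5, 107106567 to 107289629), the coreceptor betaglycan, stood at 1607, 1880.4 and 1977 in WT and at 1315, 1134 and 1023 in KO. The groups did not overlap, and KO-3, otherwise the highest KO library for most of these genes, was the lowest here. Means were 1821 ± 192 and 1157 ± 147 (SD, n = 3), and limma put the log2 fold change at -0.66 (interval -0.95 to -0.36, SE 0.13, adjusted p = 0.0286). This was the largest decrease by fold among the 10 genes with the deposited scaling, next to -0.65 for Tgfbi.

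Tgfbr1 (NCBI Gene 21812; chromosome 4, 47353222 to 47414926), the kinase that phosphorylates Smad2 and Smad3, stood at 431, 395 and 436 in WT and at 518, 616 and 557 in KO. All 3 KO libraries were above all WT libraries, with KO-2 the highest. The mean rose from 421 ± 22.6 to 564 ± 49.3 (SD, n = 3), which limma gave as 0.42 on the log2 scale (interval 0.18 to 0.66, SE 0.10, adjusted p = 0.0333). The summed proximal tubule markers were likewise higher in all KO than in all WT libraries. With their mean log2 level as a covariate the log2 fold change of Tgfbr1 was 0.27 (SE 0.20). That level was 11.6 to 12.8 in WT and 13.2 to 13.7 in KO, without overlap. Values with this covariate, here and below, therefore separate genotype from tubule marker level poorly. With that covariate limma called 0 of all genes (398 at an unadjusted p under 0.05), where edgeR without it called 2841 and DESeq2 3810.

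The ratio of the 2 signalling chains within a library is hardly touched by how libraries are scaled. Tgfbr2 exceeded Tgfbr1 7.499-fold, 9.08-fold and 9.32-fold in normalised counts in WT, and 4.86-fold, 3.43-fold and 5.33-fold in KO. All KO ratios lay under the lowest WT ratio. On the log2 scale it went from 3.10 ± 0.17 to 2.16 ± 0.33 (SD, n = 3), a difference of -0.94 (two-sided exact permutation test, p = 0.1, which is the floor for groups of 3, and 0.5 after Benjamini-Hochberg adjustment over the 5 ratios and shares tested). The ratio of Tgfbr3 to Tgfbr2 was 0.497, 0.524 and 0.486 in WT and 0.522, 0.536 and 0.345 in KO. The groups overlapped, with a log2 difference of -0.13 (exact permutation p = 0.9) that rested on KO-3, and it was 0.07 without that library.

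**Figure D2:**
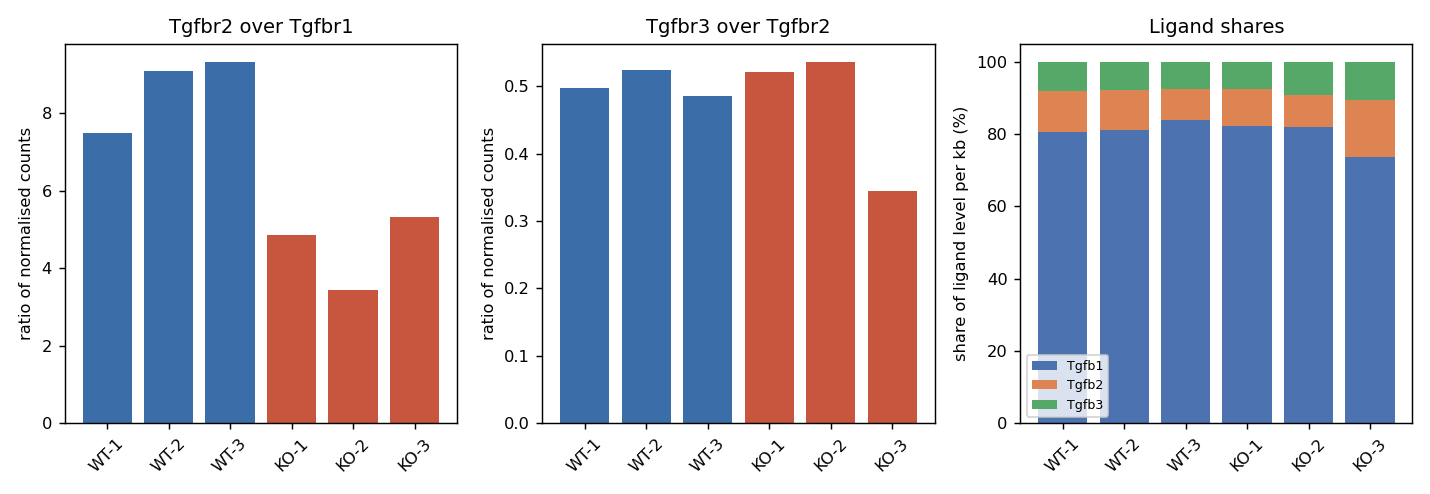
Ratios of normalised counts within each library (left and middle, y axes from 0; WT blue, KO red) and share of each ligand in the summed ligand level per kb of exon in percent (right), 1 bar per library. Tgfbr2 over Tgfbr1 is 7.499 to 9.32 in WT and 3.43 to 5.33 in KO, while KO-3 alone differs from the other libraries in the middle panel and in the ligand shares.

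None of the ligand genes passed the test with the deposited scaling and all 6 libraries, and their KO libraries disagreed with each other. Tgfb1 (NCBI Gene 21803; chromosome 7, 25687002 to 25705077), the isoform most studied in fibrosis, stood at 1110.2, 1263 and 1387 in WT and at 1024, 926 and 1123 in KO. KO-3 lay above WT-1, so the groups overlapped. The means were 1253 ± 139 and 1024 ± 98.4 (SD, n = 3), a log2 fold change of -0.29 (interval -0.56 to -0.02, limma adjusted p = 0.109). The value was 0.01 with the proximal tubule covariate, and without WT-1 it was -0.37 with an adjusted p of 0.0445.

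Tgfb2 (NCBI Gene 21808; chromosome 1, 186622787 to 186709697), the isoform that needs betaglycan for full receptor binding, stood at 180.3, 196 and 159 in WT and at 145, 117 and 281 in KO. KO-1 and KO-2 were below every WT library and KO-3 was above every one. The means of 178 ± 18.6 and 181 ± 87.8 (SD, n = 3) gave a log2 fold change of -0.08 with an interval of -0.80 to 0.65 (limma adjusted p = 0.873). Without KO-3 it was -0.44 (adjusted p = 0.129).

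Tgfb3 (NCBI Gene 21809; chromosome 12, 86056743 to 86079041), the third isoform, had the lowest counts of the 10 genes, 63 to 102 reads per library. It stood at 74.96, 82.1 and 84.0 in WT and at 62.9, 68.2 and 107 in KO, again with KO-1 and KO-2 below and KO-3 above the WT libraries. The log2 fold change was -0.06 with an interval of -0.60 to 0.48 (limma adjusted p = 0.872), and -0.29 without KO-3 (adjusted p = 0.301). Annotated exons of Tgfb2 and Tgfb3 overlap those of predicted genes on the opposite strand, by up to 80 and 257 bases, and exons of Tgfbr3 share up to 297 bases with a predicted gene on its own strand, so that a few of their reads may be assigned otherwise.

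Immune cell markers were also highest in KO-3. The summed normalised counts of 18 such markers reached 8081 in KO-3, while KO-1 and KO-2 had 2748 and 1885 and the WT libraries 1792 to 2696. Cd74, C1qa and Adgre1 stood at 3089, 196 and 80.5 in KO-3, their highest library, while Cd3e was at 0 in KO-1. The summed smooth muscle and renin cell markers were also highest in KO-3, at 6690 against 4275 to 5719 in the other libraries. That sum includes the target Tagln, which was itself highest in KO-3 (values below). Without Tagln the sum in KO-3 would lie below that of every WT library. The mean log2 level of the same list was highest in WT-3, at 7.47 against 7.40 in KO-3. Some matrix genes of the pathway lists were highest in KO-3 too. Col1a1 stood at 90.7 in KO-3 and at 13.3 to 32.1 elsewhere, Col3a1 at 139 and 11.9 to 63.4, and Dcn at 120.2 and 24.8 to 65.3. Leaving out KO-3 moved the limma log2 fold change of Fn1 from 0.58 to -0.24. Those of Fbn1 and Fmod moved less, from -0.41 to -0.38 and from -0.56 to -0.45. The part of these markers and genes in the ligand levels of KO-3 was not tested.

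Per kb of exon, Tgfb1 made up most of the ligand level in every library. Its share was 80.5%, 81.2% and 84.0% in WT and 82.3%, 82.0% and 73.6% in KO. The share of Tgfb2 was 11.4%, 10.97% and 8.38% in WT and 10.2%, 9.02% and 16.04% in KO, and the groups overlapped. Its mean went from 10.2% ± 1.63 to 11.7% ± 3.77 (SD, n = 3), a difference of 1.497 percentage points (two-sided exact permutation test, p = 0.8), and without KO-3 the difference was -0.65.

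Ltbp1 (NCBI Gene 268977; chromosome 17, 75005480 to 75392512), which stores latent ligand in the matrix, stood at 699, 703 and 863 in WT and at 586, 443 and 663 in KO. The groups did not overlap, but the gap between KO-3 and WT-1 was small and KO-2 lay far below both other KO libraries. The mean went from 755 ± 94.0 to 564 ± 112 (SD, n = 3), or -0.43 on the log2 scale (interval -0.82 to -0.04, limma adjusted p = 0.0982), which did not pass. The value was -0.27 without KO-2 and -0.16 with the proximal tubule covariate.

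The 3 targets were all lower with the deposited scaling, whereas Pmepa1 and Skil had positive values with endothelial and mesangial markers set equal. Tgfbi (NCBI Gene 21810; chromosome 13, 56609586 to 56639359), a secreted matrix protein named for its induction by TGF-beta, stood at 199, 187 and 239 in WT and at 126, 110.4 and 163 in KO. The groups did not overlap, and limma gave -0.65 on the log2 scale (interval -1.08 to -0.22, SE 0.18, adjusted p = 0.0443).

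Pmepa1 (NCBI Gene 65112; chromosome 2, 173224458 to 173276731), a membrane protein that TGF-beta induces and that holds back Smad activation, stood at 1458, 1565 and 1396 in WT and at 969, 1057 and 1299.5 in KO. KO-3 came closest to the WT libraries without reaching them. Means were 1473 ± 85.4 and 1108.5 ± 171 (SD, n = 3), and the log2 fold change in limma was -0.42 (SE 0.12, adjusted p = 0.0488), and edgeR gave an adjusted p of 0.0532.

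Skil (NCBI Gene 20482; chromosome 3, 31095058 to 31122923), which encodes SnoN, a Smad corepressor induced by the pathway it represses, stood at 758, 794 and 835 in WT and at 612, 666 and 666 in KO. Relative to its mean it varied least within both groups among the 10 genes. It fell from 796 ± 38.6 to 648 ± 30.9 (SD, n = 3), or by 0.30 on the log2 scale (SE 0.09; adjusted p = 0.0477 in limma). Log2 fold changes with the proximal tubule covariate were -0.55 (SE 0.38) for Tgfbi, -0.51 (SE 0.24) for Pmepa1 and -0.24 (SE 0.17) for Skil. Those of Tgfbr2 and Tgfbr3 were -0.22 (SE 0.26) and -0.25 (SE 0.18), and none of these passed.

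**Figure D3:**
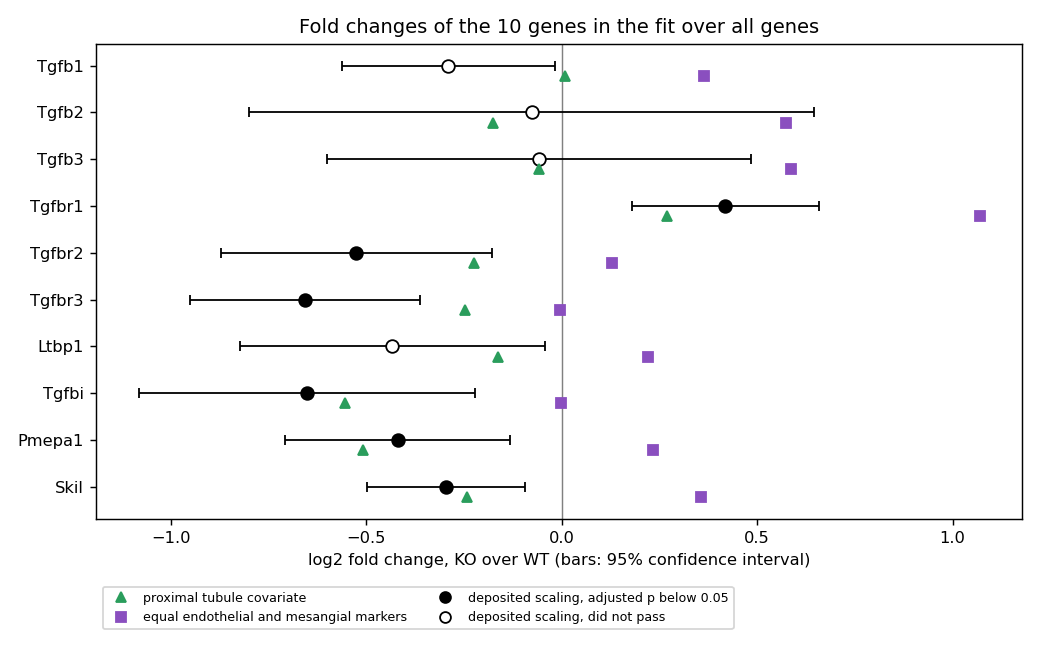
Log2 fold changes of KO over WT (x axis) for the 10 genes (y axis) with 95% confidence intervals from limma; filled circles passed an adjusted p of 0.05. Triangles give the value with the mean proximal tubule marker level as covariate and squares the value with endothelial and mesangial markers set equal, where every gene shifts upward with the median of all genes and 7 of the 10 signs turn.

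These directions are relative to the median gene. When the libraries were scaled to equal endothelial and mesangial marker levels, the median log2 fold change of all genes rose by 0.65, and Tgfb1, Tgfb2, Tgfb3, Tgfbr2, Ltbp1, Pmepa1 and Skil had positive values. In that scaling 4 of the 10 genes were called, all higher, against 65.6% of all genes (65.3% higher, 0.33% lower). They were Tgfb1, Tgfb3, Tgfbr1 and Skil (limma adjusted p = 0.0242, 0.0469, 0.0038 and 0.0465). Skil was thus called lower with the deposited scaling and higher in this scaling. Dividing each library by a factor of its own shifts all genes nearly alike, so values relative to the median gene could hardly change. In this scaling they were -0.51 for Tgfbr2, -0.65 for Tgfbr3, -0.64 for Tgfbi, -0.41 for Pmepa1, -0.29 for Skil and 0.43 for Tgfbr1. Set against the mean log2 level of the endothelial markers of the same library, Tgfbr2, Tgfbr3, Ltbp1, Tgfbi and Pmepa1 overlapped between the groups, and Tgfbr1, Skil and the 3 ligands lay above all WT libraries in all KO libraries. The same genes overlapped, and the same genes were higher, relative to the mesangial markers. Relative to the podocyte markers, Tgfbr1 differed by 0.95 and Tgfbr3 by -0.12 on the log2 scale without overlap, and 8 genes overlapped. These comparisons with marker means were chosen after seeing the data. Two-sided exact permutation tests gave p = 0.1, the smallest value possible, for each gene without overlap and 0.2 or more for the others, so none could pass.

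**Figure D4:**
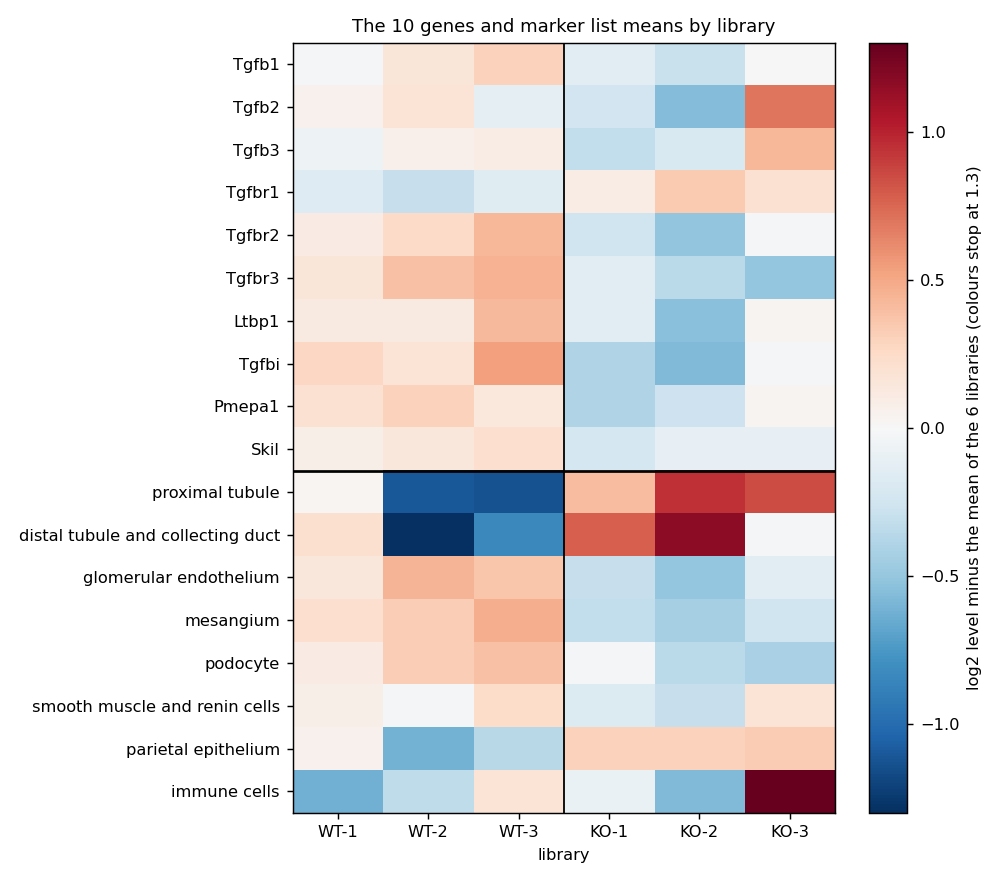
Log2 level of each of the 10 genes and mean log2 level of each marker list (rows), minus the mean over the 6 libraries (colour, red higher and blue lower), by library (columns). With the deposited scaling Tgfbr2, Tgfbr3 and the endothelial and mesangial rows are lower in the KO columns and the proximal tubule row is higher, and immune markers, Tgfb2 and Tgfb3 are highest in KO-3.

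The calls depended on single libraries. Without WT-2, WT-3, KO-2 or KO-3 none of the 10 genes passed in limma, where 1, 0, 4 and 3 of all genes were called (3939, 4048, 4021 and 4924 at an unadjusted p under 0.05). Without KO-1, Tgfbr1 and Tgfbr3 passed, and 2062 genes did in all. Without WT-1, 4294 genes passed, among them 5 lower and 1 higher of the 10, with Tgfb1 in and Pmepa1 out. Over these fits the log2 fold change of Tgfbr1 ranged from 0.35 to 0.48, that of Tgfbr2 from -0.65 to -0.40 and that of Tgfbr3 from -0.75 to -0.57. Among the targets, Tgfbi ranged from -0.81 to -0.53, Pmepa1 from -0.54 to -0.33 and Skil from -0.33 to -0.26. Ltbp1 ranged from -0.56 to -0.27 and Tgfb1 from -0.37 to -0.21, and Tgfb2 and Tgfb3 changed sign, from -0.44 to 0.19 and from -0.29 to 0.09.

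Compared per kb of exon, the 10 genes spanned a wide range of levels in WT. The order was Tgfbr2, Pmepa1, Tgfbr3, Tgfb1, Skil, Ltbp1, Tgfbr1, Tgfbi, Tgfb2 and Tgfb3, from 443 ± 51.1 to 23.8 ± 1.41 normalised counts per kb (SD, n = 3). Neighbours overlapped in their WT ranges from Pmepa1 through Tgfbr3 to Tgfb1, and from Skil through Ltbp1 and Tgfbr1 to Tgfbi, while Tgfbr2, Tgfb2 and Tgfb3 each stood apart from their neighbours. Tgfbr1 was at 64.4 ± 3.45 in WT and at 86.3 ± 7.54 in KO, where Skil was at 66.8 ± 3.19. The scale rests on annotated exons, and transcripts that use part of them would have a higher level per kb.

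Beyond these 10 genes, 60 of 61 listed pathway genes were tested, and 11 were lower, 6 higher and 43 did not pass, at a median log2 fold change of -0.21, where 8.58% of all genes were called lower and 13.5% higher. Among the 14 tested genes of latent complexes, activators and ligand binders, 3 fell and 2 rose, at a median of -0.39. Ltbp4, a relative of Ltbp1 in elastic matrix, fell from 1679 ± 574 to 752 ± 48.1 (SD, n = 3; limma log2 fold change -1.10, adjusted p = 0.0286), with 2281 in WT-2 and 1138 in WT-3. Lrrc32, which holds latent ligand on the cell surface, fell from 733 ± 73.0 to 456 ± 108 (SD, n = 3), and Bgn, a matrix proteoglycan that binds ligand, from 4962 ± 569 to 3642 ± 147. Itgb6, an integrin chain that releases active ligand, rose from 336 ± 140 to 889 ± 222 and Furin, the protease that cuts the ligand precursor, from 1511 ± 194 to 2093 ± 165 (SD, n = 3). WT-1 had the most Itgb6 and Furin of the WT group and also the highest proximal tubule marker sum, and with the mean of those markers as a covariate their log2 fold changes of 1.44 and 0.47 became 0.08 and 0.06.

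Of 5 other receptors and coreceptors, 3 fell and 2 did not pass, at a median of -0.51, where 8.58% of all genes were called lower. Bambi, a decoy receptor without a kinase, fell from 785 ± 130 to 437 ± 52.1 (SD, n = 3; log2 fold change -0.84, limma adjusted p = 0.0286). Acvrl1, the type I receptor that endothelial cells use beside Tgfbr1, fell from 2084 ± 138 to 1336 ± 219, and Acvr1, a related type I receptor, from 418 ± 40.59 to 293 ± 16.8 (SD, n = 3). With endothelial and mesangial markers set equal, Acvr1 was at 0.14 and Acvrl1 near 0, and of the previous list Bgn was at 0.21, Lrrc32 at -0.05 (adjusted p = 0.76 in limma) and Ltbp4 at -0.45. With the proximal tubule covariate Lrrc32 was at -0.36 and Bgn at -0.10. Of 17 genes of Smad signalling and its inhibitors, 1 was called higher and 0 lower by limma with the deposited scaling, at a median of -0.13. Without overlap 5 of the 17 were lower, where 21.9% of all genes were. Ski, a Smad corepressor, was called lower by DESeq2 (log2 fold change -0.31, adjusted p = 0.0461), and limma with upper quartile scaling called Ski and Smad4 lower (adjusted p = 0.0427 and 0.0437). The gene that rose was Nedd4l, a ubiquitin ligase for phosphorylated Smad2 and Smad3, from 353 ± 72.4 to 555 ± 48.7 (SD, n = 3), with a log2 fold change of 0.67 that was 0.05 with the proximal tubule covariate.

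Other targets were mixed, with 5 lower, 3 higher and 16 that did not pass among 24, at a median of 0.12. Of all genes, 8.58% were called lower and 13.5% higher. Nuak1, a kinase of the AMPK family, fell from 514 ± 25.4 to 292 ± 21.7, Postn, the matrix protein periostin, from 128 ± 17.5 to 47.2 ± 23.2, Klf10, an early TGF-beta response factor, from 573 ± 30.5 to 375 ± 80.4 and Snai1, a repressor of epithelial genes, from 175 ± 30.2 to 97.1 ± 24.7 (SD, n = 3). The fifth lower gene was Snai2, named after its value was seen. With endothelial and mesangial markers set equal, Klf10 was at 0.02, Snai2 at 0.09, Nuak1 at -0.16 and Snai1 at -0.22. Postn was at -0.87 and alone of the 5 was still called lower (limma adjusted p = 0.0322). Nox4, an oxidase abundant in tubules, rose from 1089 ± 576 to 3076 ± 259, Tagln, a contractile protein, from 610.2 ± 52.1 to 2000 ± 1202 and Tgm2, which crosslinks matrix, from 1116 ± 238 to 2024 ± 636 (SD, n = 3). Tagln was at 1254, 1359 and 3386 in KO, highest in KO-3, and its log2 fold change of 1.56 was 1.10 without that library (limma adjusted p = 0.0579). Tgm2 did not pass in limma with upper quartile scaling (adjusted p = 0.0542). With the proximal tubule covariate the log2 fold changes of Nuak1, Postn and Klf10 were -0.89, -1.43 and -0.71, against -0.81, -1.51 and -0.63 without it, while those of Snai1 and Snai2 went from -0.86 and -0.56 to -0.53 and -0.21. Among the higher targets, Nox4 and Tgm2 went from 1.62 and 0.83 to 0.21 and 0.06, and Tagln from 1.56 to 1.22.

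**Figure D5:**
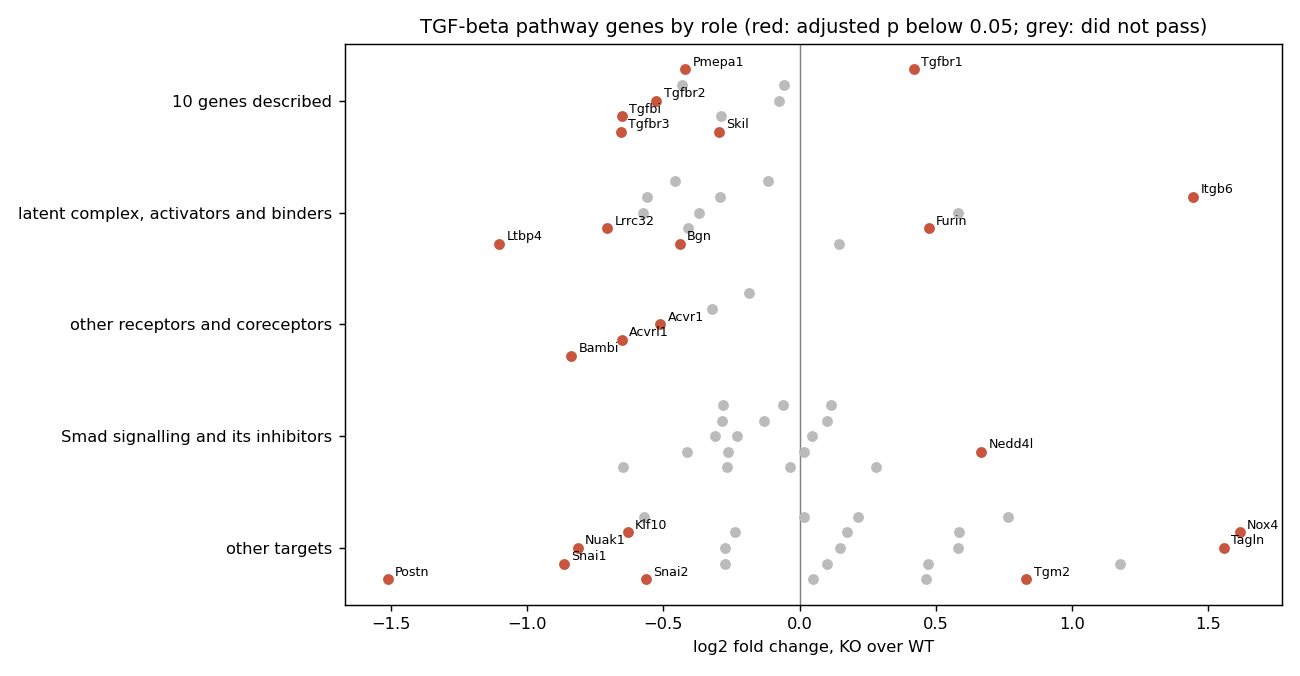
Log2 fold changes of KO over WT (x axis) of the 10 genes and of 4 lists of other TGF-beta pathway genes (rows), 1 point per gene tested; red points passed an adjusted p of 0.05 and are named. Lower and higher genes occur side by side among activators and targets, and the 3 named receptors of the third row are lower with the deposited scaling.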

How the data were processed

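A single deposited table holds normalised counts of 6 libraries (3 KO, 3 WT), a signal: per the file headers and the values, the authors divided each gene's reads by 1 size factor for the library. The submitters' processing notes name bcl2fastq 2.19, cutadapt 1.16.5, HISAT2 2.1, featureCounts 1.6.4, DESeq2 2.11.40.6 and mm10. Strand setting and annotation: not given in the sources used here. All values (100%) were whole multiples of a step per library at a tolerance of 0.01, which gave the whole reads; edgeR called 2841 genes on them. The reads have no molecular identifiers, so counts of reads are not counts of independent molecules. Symbols and coordinates came from RefSeq (GRCm38.p6, the same build; 25275 of 27179 identifiers, 25293 with GENCODE M21), and exon lengths from GENCODE M21.

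The test was limma 3.58.1 (R 4.3.3) with a variance trend on log2(normalised count + 1), which understates the change of low genes, for genes with a mean of at least 10, with Benjamini-Hochberg adjustment over all of them, genotype as the only term and a two-sided threshold of 0.05. Ratios within libraries had exact permutation tests. Alternatives were edgeR 4.0.16, DESeq2 1.42.0, other pseudocounts, scalings, filters and priors, a replicate block, a proximal tubule covariate (mean marker level) and leaving out each library. Pathway genes past the threshold were named by a rule, up to 4 with the smallest adjusted p per list and direction. Values of Snai2, Ski, Smad4, Col1a1, Col3a1, Dcn, Fbn1, Fmod and Fn1 were given outside that rule. The members, lists and tests were chosen with earlier results of these data known. The limma fit with genotype as the only term was tested on simulated data, with changes larger than those of the 10 genes. The other fits and tests were not. Titles number separate samples; libraries of a genotype differed by more than sampling noise in every pair (chi-square over its degrees of freedom 14.0 or more).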

Additional observations from a re-analysis of the deposited data

How the results depend on the processing

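In the deposited scaling 3085 genes, 5 lower and 1 higher of the 10 TGF-beta genes, and 11 lower and 6 higher of the other pathway genes passed. With endothelial and mesangial markers set equal the counts were 9154, 0, 4, 1 and 28 in that order, and the log2 fold changes turned to 0.36 for Tgfb1, 0.57 for Tgfb2, 0.59 for Tgfb3, 0.13 for Tgfbr2, 0.22 for Ltbp1, 0.23 for Pmepa1 and 0.36 for Skil, since this scaling adds 0.65 to the median gene. Each of these 5 counts was 0 with the replicate block and with the proximal tubule covariate (Tgfb1 at 0.009); without the variance trend they were 1, 0, 0, 0 and 0. With no filter 1 of the 10 genes passed as lower, where 2668 of 19461 genes passed. Tgfbr2, Tgfbi, Pmepa1 and Skil had unchanged log2 fold changes there and limma adjusted p of 0.0508 to 0.0643. In edgeR 3 of the 10 genes passed as lower, where 2841 of all genes passed. Tgfb2 was at 0.0197 in edgeR and 0.0249 in DESeq2. Leaving out each library gave 0 to 4294 genes, 0 to 5 lower and 0 to 1 higher of the 10 genes, and 0 to 18 lower and 0 to 7 higher pathway genes. It gave -0.44 to 0.19 for Tgfb2 and -0.29 to 0.0868 for Tgfb3, -0.65 to 2.86 percentage points for the share of Tgfb2, -1.07 to -0.76 for the log2 ratio of Tgfbr2 to Tgfbr1 and -0.24 to 0.0745 for that of Tgfbr3 to Tgfbr2. The cause of these changes was not tested, and each fit without a library also had fewer samples. Deviations of same-numbered libraries correlated at -0.23, -0.19 and -0.01, and those of different-numbered libraries at -0.20 to 0.34. With 3 libraries per group these values cannot tell whether the replicate numbers pair the libraries. The replicate block cannot move a difference of means in this balanced design. With it the log2 ratio of Tgfbr2 to Tgfbr1 (-0.94) had an exact permutation p of 0.25 in place of 0.1. Each is the smallest value its test can give, so the change does not show a weaker difference. The other settings kept all 5 counts within 1.5 times. Depth limits Tgfb3 most, at 63 to 102 reads per library.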
